A study of Mus musculus with 19 samples.

Results

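The 6 GATA transcription factors, Gata1 to Gata6, and their 2 Fog cofactors, Zfpm1 (Fog1) and Zfpm2 (Fog2), were followed across fibroblast cultures from 7 mouse organs. Members were chosen by gene symbol through the RefSeq accession of each array probe. All 8 genes had a probe, 10 probes in total, out of 20660 genes with a probe, and all 8 were among the 19717 genes tested. Gata1 to Gata6 had 1 probe each and Zfpm1 and Zfpm2 had 2 each.

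Organs of adult mice 8 to 10 weeks old were cut into small pieces, digested at 37 °C for 40 min with either trypsin or collagenase type II, and the cells were grown for 5 days in high-glucose medium with 10% serum before total RNA was taken. The labels name the groups gonad (3 samples), heart (3), kidney (2), liver (3), lung (3), skin (2) and tail (3). They give no genotype, strain or sex, do not say whether the gonads were ovaries or testes, and do not say which enzyme was used for which organ. Nothing in them ties a replicate to an animal of its own, and every p-value here reflects no more than how far the samples of an organ lay apart.

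GATA factors bind DNA motifs built on the letters GATA through a pair of zinc fingers. By textbook division, Gata1, Gata2 and Gata3 act mainly in blood and lymphoid cells, with Gata2 also in endothelium, while Gata4, Gata5 and Gata6 act in heart, gut, gonad and other tissues of mesodermal and endodermal origin. Fog proteins do not replace GATA factors on DNA but bind to their amino-terminal zinc finger and recruit corepressors. Fog1 partners Gata1 in red cells and platelets, and Fog2 partners Gata4 in heart and gonad.

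Scanner readings were used for 18 arrays, since lung replicate 2 was present only in the deposited value table. Expression here is the scanner's background-corrected processed signal, in arbitrary units, or its log2 after subtraction of the array's 75th percentile, called the scaled level below. The 5 arrays gonad replicate 3, heart replicate 1, kidney replicates 1 and 2 and tail replicate 2 failed the scanner's own check of the negative control probes. Their median raw signal was 213 to 1985 units, against 63 to 130.5 units on the other 13 arrays, and 84.9% to 96.6% of their probes were scored well above background, against 51.2% to 77.2%. Both kidney arrays belong to the 5, so organ and raised background cannot be told apart for kidney. Of 19 fibroblast markers, 18 or 19 were well above background on every array of each organ, kidney included. In kidney 16 of the 19 were called lower than in the other organs, where 42.4% of all genes were.

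Of the RefSeq promoter windows, 6 matched 5 of the members, namely Gata1, Gata2 (2 start sites), Gata3, Gata5 and Zfpm1. Gata4, Gata6 and Zfpm2 had no entry. The windows of Gata2 are shown because Gata2 was the member called lower in heart cultures, and because its 2 start sites, 4773 bases apart, have different sequence. Each is the 250 bases before the start site, 5′ to 3′ on the plus strand of GRCm38.p6, at chr6:88193641-88193890 and chr6:88198414-88198663. Capitals mark CCAAT or, on the other strand, ATTGG.
Gata2, upstream start: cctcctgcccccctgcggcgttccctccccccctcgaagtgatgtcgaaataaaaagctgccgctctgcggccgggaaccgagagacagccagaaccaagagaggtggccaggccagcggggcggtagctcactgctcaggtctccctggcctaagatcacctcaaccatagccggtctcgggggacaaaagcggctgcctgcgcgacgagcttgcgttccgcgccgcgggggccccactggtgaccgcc
Gata2, downstream start: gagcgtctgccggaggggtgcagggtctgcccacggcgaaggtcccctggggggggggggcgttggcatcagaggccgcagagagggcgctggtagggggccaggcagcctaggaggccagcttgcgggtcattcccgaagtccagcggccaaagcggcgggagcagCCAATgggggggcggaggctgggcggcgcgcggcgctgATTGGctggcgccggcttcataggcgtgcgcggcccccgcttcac
The GATA-type letters GATAA, searched on both strands as GATAA and TTATC, which cannot overlap each other, were absent from all 6 windows. They occur in 22.6% of the 32851 windows of this length in the table. CCAAT was found in 1 of the 6 windows, the downstream start of Gata2, on each strand once, and in 33.8% of all windows. The GC content of the Gata2 windows was 67.2% and 74.0%, against a median of 52.4% over all windows. The array's single Gata2 probe was not assigned to either start site here.

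Whether the members differed among organs was asked first with limma's moderated F test over the 7 organs. Gata1, Gata2, Gata3, Gata4, Gata6, Zfpm1 and Zfpm2, 7 of the 8 members, passed at a Benjamini-Hochberg adjusted p under 0.05 over all genes, where 34% of all genes tested passed. The adjusted p was 1.84e-06 for Gata4, 0.000185 for Gata6, 0.00125 for Gata2, 0.00782 for Zfpm2, 0.0174 for Gata3, 0.0188 for Zfpm1, 0.0452 for Gata1 and 0.398 for Gata5. On the 13 arrays without raised background, which leave out kidney, the same 7 members passed, where 47.1% of genes did. Zfpm1 and Zfpm2 missed the threshold without kidney replicate 1 (adjusted p = 0.0591 and 0.0886), and Gata3 missed it without gonad replicate 1 or 2 (adjusted p = 0.0501 and 0.0531).

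**Figure D1:**
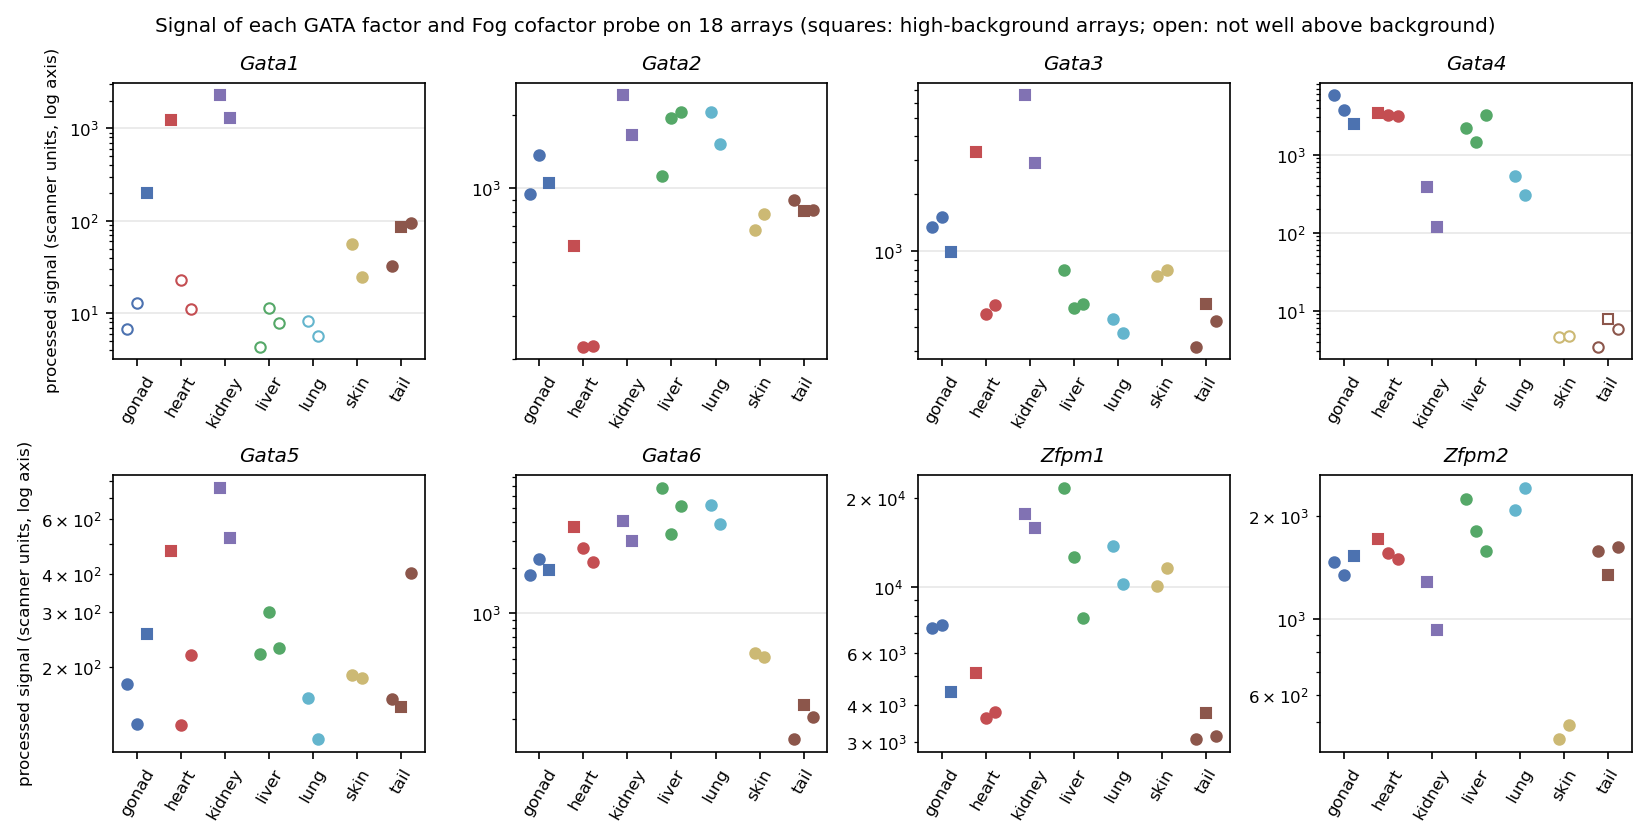
Processed signal (scanner units, log axis) of the probe used for each member, 1 point per array, by organ; squares are the 5 arrays with raised background and open symbols are readings not well above background. Gata4 lies at 3.44 to 7.79 units in skin and tail and at 1472 to 5815 units in gonad, heart and liver.

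Gata4, a regulator of heart, gonad and liver mesenchyme development, separated the organs most sharply. Its processed signal was 5815, 3773 and 2503 units in gonad replicates 1 to 3. In heart it was 3425, 3181 and 3170 units, and in liver 2209, 1472 and 3184 units. These 9 arrays were all above those of the other 4 organs. Lung gave 530 units in replicate 1 and 301 units in replicate 3. Kidney gave 386 and 117 units. Skin gave 4.62 and 4.72 units and tail 3.44, 7.79 and 5.78 units, and none of these 5 readings was well above background. Lung therefore lay between the high and the undetected organs on every array.

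Gata4 was higher in gonad, in heart and in liver than in the mean of the other 6 organs, and lower in skin and in tail. A difference was called at an adjusted p under 0.05 and a size of at least 1 on the log2 scale. Because skin and tail gave only an upper limit, folds are stated as lower bounds, with the dim organ set to the lowest signal that any probe well above background had on each array. Against the other 6 organs Gata4 was at least 21.9-fold higher in gonad (limma adjusted p = 6.19e-05), at least 11.5-fold higher in heart (limma adjusted p = 0.00015) and at least 10.8-fold higher in liver (limma adjusted p = 0.000905). It was lower in skin (limma adjusted p = 0.000274) and in tail (limma adjusted p = 7.38e-06). No fold is given for these, because the other 6 organs then include tail or skin, whose readings were themselves only upper limits. The p-values are those of the fitted differences and not of the bounds. All 5 calls were kept when any single array was left out and under every other setting tried, except the filter to probes well above background on every array, which Gata4 did not pass, so that no fit was made there.

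Mean scaled levels of Gata4 were 2.99 ± 0.72 (SD, n = 3) in gonad, 2.20 ± 1.38 (n = 3) in heart, 2.12 ± 0.66 (n = 3) in liver and -0.32 ± 0.39 (n = 2) in lung. The heart SD comes from replicate 1, an array with raised background and a high 75th percentile, where the scaled level was 0.61 against 3.00 and 2.99 in replicates 2 and 3, although the processed signals of all 3 were close. No pair among gonad, heart and liver was called for Gata4, where 4.27% (gonad against heart), 0.862% (gonad against liver) and 3.74% (heart against liver) of all genes were. Pairs of an internal organ with skin or tail were called in all cases without kidney. On the 75th percentile scaling gonad exceeded skin at least 168-fold and tail at least 190-fold. Lung exceeded skin at least 17.0-fold and tail at least 19.1-fold on the same scaling. Among the pairs without skin, tail or kidney, gonad against lung was the single one called for Gata4, by 3.31 ± 0.69 (log2, SE; limma adjusted p = 0.038). That call was lost with the slide as a block (adjusted p = 0.0812) and in 12 of the 18 fits that left out 1 array. The pairs with a call covered 1.02% of all genes for gonad against lung, 5.39% for gonad against tail and 2.52% for gonad against skin.

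Gata6, the partner of Gata4 in heart and endoderm, had the same 2 low organs but was measured well above background on all 18 arrays. Liver gave 6803, 3365 and 5098 units, lung 5178 and 3927 units, and heart 3747, 2726 and 2191 units. Gonad gave 1796, 2279 and 1928 units and kidney 4083 and 3032 units. Skin gave 550 and 516 units, and tail 147, 249 and 206 units. In scanner units skin lay below all internal organs and tail below skin, with no overlap on any array. On the scaled level kidney, at -0.02 and 0.55, overlapped skin, at 0.21 and 0.38.

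Gata6 was higher in liver than in the other 6 organs by 2.23 ± 0.37 (log2, SE; limma adjusted p = 0.00676), and lower in tail by a difference of -3.29 ± 0.37 (limma adjusted p = 9.89e-05). The liver call was lost without liver replicate 1, at 2.03 with an adjusted p of 0.0655. Lung missed the threshold, with a difference of 2.11 ± 0.44 (limma adjusted p = 0.055), and passed on the 13 arrays at 1.81 (limma adjusted p = 0.0106; 1.3% of all genes higher in lung there). Skin also missed it, at -1.26 ± 0.44 (limma adjusted p = 0.266), and passed on the 13 arrays at -1.65 (limma adjusted p = 0.00272; 3.78% of all genes lower in skin there). Heart was not called on all 18 arrays, at 0.71 ± 0.37 (limma adjusted p = 0.654). On the 13 arrays it was called higher, where 3.41% of all genes were, but not there with normexp background correction and quantile scaling. Tail was below liver by 4.73, lung by 4.62, gonad by 3.50 and heart by 3.43 on the log2 scale, with limma adjusted p between 5.41e-05 and 0.00065. Those pairs had 4.74%, 2.56%, 5.39% and 4.81% of all genes called. Liver exceeded skin by 2.99 (limma adjusted p = 0.00958; 1.95% of genes) and lung exceeded skin by 2.88 (limma adjusted p = 0.031; 1.09% of genes). The first of these calls was lost without either skin array and the second with the slide as a block (adjusted p = 0.0622) and in 6 of the 18 fits that left out 1 array. Skin exceeded tail by 1.74 without passing (limma adjusted p = 0.129; 2.84% of all genes called in that pair), and passed on the 13 arrays, at 1.81 (limma adjusted p = 0.00785).

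The levels of Gata4 and Gata6 varied together over the arrays, as a description, with Pearson's r = 0.85 over 18 arrays and 0.856 over the 13 arrays without raised background. The arrays share the scaling, the 5 Gata4 readings of skin and tail were not well above background, and replicates of an organ are not separate points of such a relation. The relation was looser in rank, with Spearman's rho = 0.672. The genes whose scaled level was most alike to Gata4 over 18 arrays were Serpini1 (r = 0.958), Clca3a2 (0.954), Sh3tc2 (0.954), Clca3a1 (0.95) and Ptprb (0.947), a receptor phosphatase of endothelium. For Gata6 they were Mogat2 (0.964), Glipr1 (0.953), Rasl11b (0.945), Ptprb (0.942) and Gprc5b (0.94). Ptprb was the gene that both lists held.

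**Figure D2:**
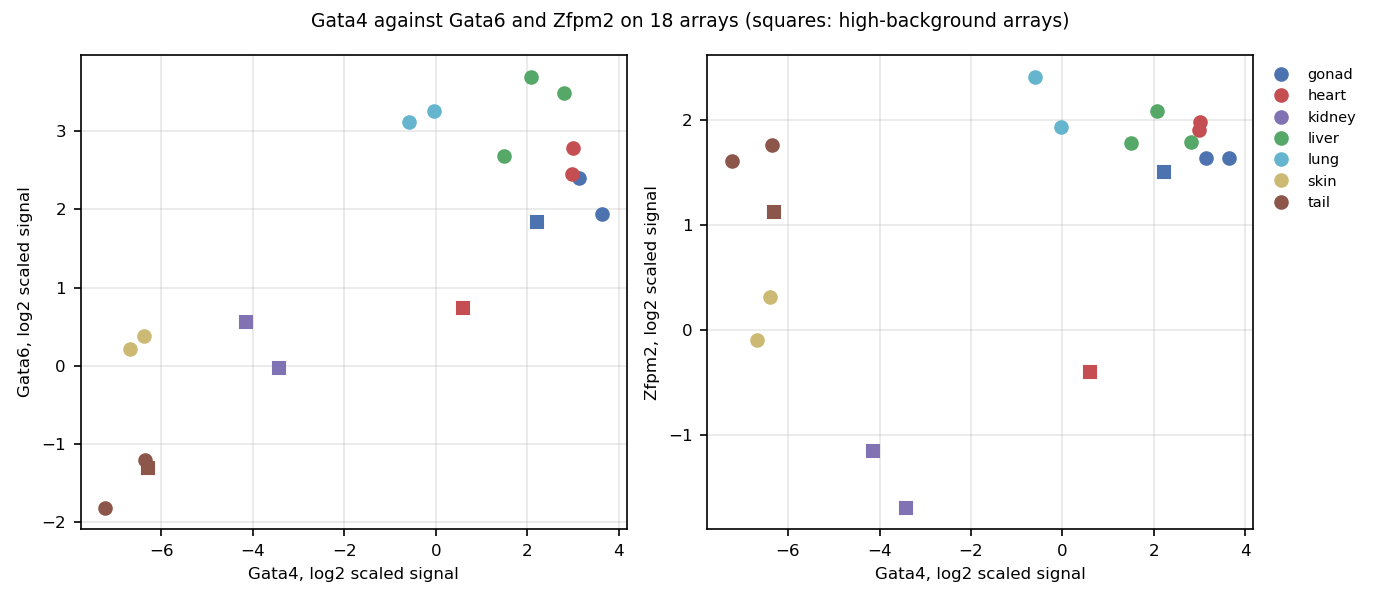
Scaled level (log2) of Gata4 against Gata6 (left) and against Zfpm2 (right), 1 point per array and 1 colour per organ; squares are the 5 arrays with raised background. Skin and tail sit apart at a Gata4 level below -6, where readings were not well above background, lung lies high in Gata6 with a Gata4 level near 0, and skin and tail separate along Zfpm2.

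Gata5, the remaining member of the heart and gut group, was called in no organ. Its processed signal ran from 117 units in lung replicate 3 to 759 units in kidney replicate 1, and all 18 readings were well above background. Tail gave 158, 148 and 403 units, so 1 organ spanned much of the range of the others. Organ means of the scaled level lay between -2.22 in kidney and -1.01 in liver, and the F test on the 13 arrays gave an adjusted p of 0.402. The organs could not be ordered for Gata5 beyond the spread within them.

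Gata2, which maintains blood stem cells and is active in endothelium, was lowest in heart. Heart gave 579, 224 and 225 units in replicates 1 to 3. Gonad gave 952, 1365 and 1056 units, liver 1123, 1941 and 2064 units and lung 2053 and 1519 units. Skin gave 676 and 786 units, tail 893, 805 and 818 units and kidney 2413 and 1660 units. All 3 heart arrays were below every array of the other organs, in scanner units, and the highest of the 3 was the array with raised background.

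Against the other 6 organs Gata2 was lower in heart by a difference of -2.14 ± 0.31 (log2, SE; limma adjusted p = 0.00109). The call was kept in all alternatives run, including the 13 arrays at -2.11 (limma adjusted p = 0.00118; 4.92% of all genes lower in heart there). Heart was below lung by 3.03, liver by 2.93, gonad by 2.42, skin by 1.95 and tail by 1.86 on the log2 scale, all called, in pairs where 2.56%, 3.74%, 4.27%, 2.71% and 4.81% of all genes were called. Of these, heart against skin was lost with the slide as a block (adjusted p = 0.0751), under quantile scaling, without scaling, and in 7 of the 18 fits that left out 1 array. Heart against tail was lost under quantile scaling and without tail replicate 1 or 3. No other organ was called for Gata2 outside kidney. The genes most alike were Cnn1 (r = 0.95 over 18 arrays, 0.919 over 13) and Actg2 (0.948 and 0.906), both of smooth muscle, then Efnb2 (0.937), Prkar1b (0.937) and Thbd (0.931).

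Gata3, the regulator of T helper type 2 and mammary luminal cells, was highest in gonad once the arrays with raised background are set aside. Gonad gave 1343, 1505 and 990 units. On arrays without raised background the other organs ran from 316 units in tail replicate 1 to 801 units in skin replicate 2, so gonad replicates 1 and 2 were above all of them. Heart replicate 1 gave 3319 units against 469 and 524 units in heart replicates 2 and 3, and kidney gave 6584 and 2905 units.

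Gata3 was higher in gonad than in the other 6 organs by 1.16 ± 0.25 (log2, SE; limma adjusted p = 0.0222). On the 13 arrays the difference was 1.52 (limma adjusted p = 0.00131; 4.17% of all genes higher in gonad there). The call was lost without gonad replicate 1 (adjusted p = 0.192) or gonad replicate 2 (0.96, adjusted p = 0.256), and fell under the size limit with quantile scaling (0.92). Without any scaling the difference was 0.61 (adjusted p = 0.413). Gonad exceeded tail by 1.75 (limma adjusted p = 0.00445) and lung by 1.69 (limma adjusted p = 0.0444). The call against lung was lost with the slide as a block (adjusted p = 0.0625) and in 16 of the 18 fits that left out 1 array, and that against tail without scaling (adjusted p = 0.145). The genes most alike to Gata3 were Acsbg1 (r = 0.892), Mrap (0.865), Ccl17 (0.854), Hoxd8 (0.847) and Gna14 (0.829).

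Gata1, the master regulator of red cells and platelets, was at the detection limit of most cultures. It was not well above background on any liver or lung array, on gonad replicates 1 and 2 or on heart replicates 2 and 3, where it gave 4.36 to 22.9 units. It reached 2291 and 1309 units in kidney, 1247 units in heart replicate 1 and 202 units in gonad replicate 3, which are 4 of the 5 arrays with raised background. Skin gave 56.3 and 24.7 units and tail 32.2, 85.9 and 94.2 units, all well above background.

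The F test of Gata1 passed narrowly and was lost in 20 of 33 alternative settings, including normexp background correction together with quantile scaling (adjusted p = 0.132). On the 13 arrays with both of these its adjusted p was 0.698. On arrays without raised background, skin and tail had median raw signals of 98 to 130.5 units and the other organs 63 to 87 units, and 69.2% to 77.2% of probes against 51.2% to 69.3% were well above background. The part of these readings in the Gata1 values was not tested. Over 18 arrays the genes most alike to Gata1 were Rph3al (r = 0.975), Hyal6 (0.97), Gcg (0.969), Iqcf4 (0.969) and Vmn2r-ps129 (0.968). Of 18 measured blood targets and partners of Gata1 and Gata2, 3 passed the F test, where 34% of all genes did. Pf4, the platelet factor, was higher in heart by 5.49 (limma adjusted p = 0.0017). No member of that list was called in gonad, liver, lung or skin, where 2.13% of all genes or fewer were called in each direction. At an unadjusted limma p under 0.05, 1 was higher and 1 lower in gonad, 2 and 3 in liver, 1 and 1 in lung and 0 and 1 in skin.

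**Figure D3:**
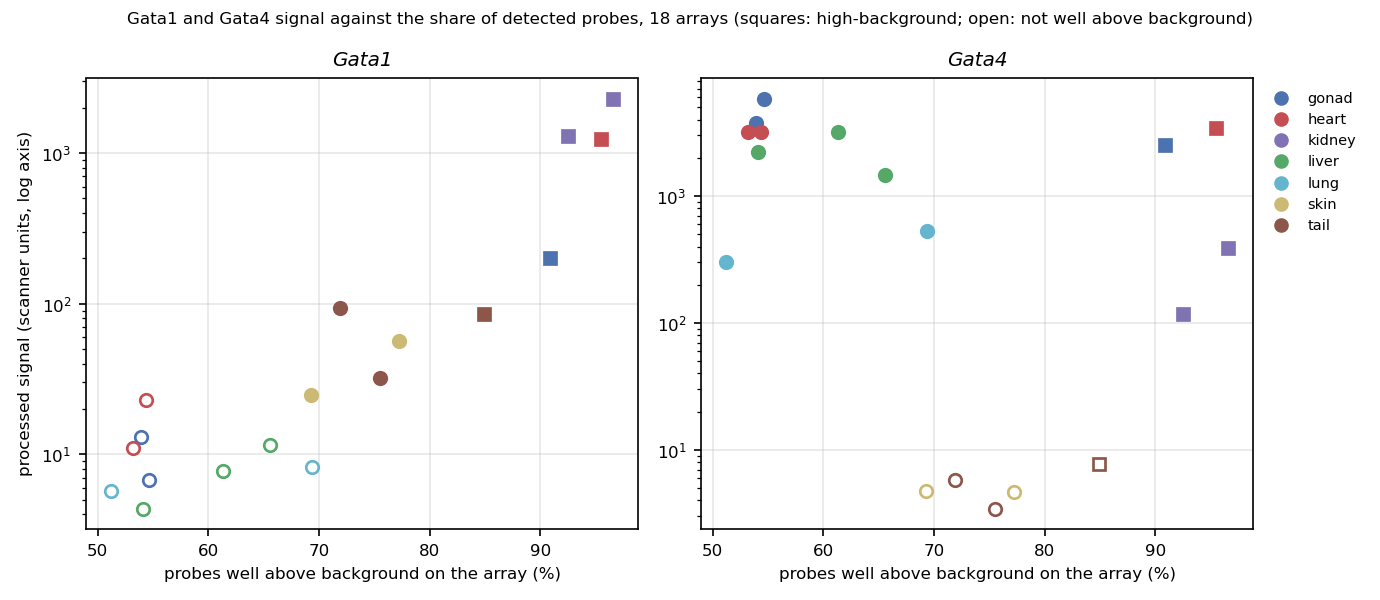
Processed signal (scanner units, log axis) of Gata1 (left) and Gata4 (right) against the percentage of probes well above background on the same array, 1 point per array, coloured by organ; squares are arrays with raised background and open symbols are readings not well above background. The 3 highest Gata1 readings, 1247 to 2291 units, are on arrays where over 90% of probes were well above background. Gata4 is low in skin and tail and high in gonad, heart and liver. Gonad, heart and tail have arrays with and without raised background, while skin and liver have no array with raised background.

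Zfpm1 (Fog1) was well above background on all 18 arrays. The probe used gave 21628, 12593 and 7870 units in liver, 13766 and 10249 units in lung and 10063 and 11558 units in skin. Gonad gave 7259, 7453 and 4409 units and kidney 17655 and 15762 units. Heart gave 5126, 3614 and 3781 units and tail 3065, 3759 and 3130 units. Heart and tail overlapped each other, and both lay below all arrays of liver, lung, skin and kidney in scanner units. On the scaled level kidney, at 2.09 and 2.93, was below heart replicates 2 and 3, at 3.19 and 3.24. The 2 probes of Zfpm1 followed each other with r = 0.997 over 18 arrays.

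No organ outside kidney was called for Zfpm1 against the others, with differences of -1.25 ± 0.42 in heart (log2, SE; limma adjusted p = 0.168) and -1.14 ± 0.42 in tail (limma adjusted p = 0.148). On the 13 arrays tail passed, at -1.58 (limma adjusted p = 0.00321; 5.03% of all genes lower in tail there), and heart did not. Heart was called lower on the 13 arrays with normexp background correction and quantile scaling, where 2.81% of all genes were. It was also called lower on all 18 arrays with membership of the 5 arrays with raised background as a term, where 3.44% of all genes were. In pairs, heart was below liver by 2.15 (limma adjusted p = 0.0379) and tail below liver by 2.05 (limma adjusted p = 0.043). Both pair calls were lost with the slide as a block and in most fits that left out 1 array. The genes most alike to Zfpm1 were Egfr (r = 0.979 over 18 arrays, 0.967 over 13), Phlda1 (0.96), Slc25a33 (0.945), Ankrd34a (0.944) and Grk6 (0.94). Egfr encodes the epidermal growth factor receptor.

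Zfpm2 (Fog2), the usual partner of Gata4, was lowest in skin in scanner units. Skin gave 446 and 491 units, the lowest of all 18 arrays. Tail gave 1576, 1341 and 1618 units, close to gonad at 1464, 1343 and 1528 units and heart at 1707, 1564 and 1500 units. Liver gave 2235, 1802 and 1580 units, lung 2085 and 2420 units, and kidney 1285 and 927 units. In tail, where Gata4 was not well above background, Zfpm2 overlapped the arrays of gonad, heart and liver, while skin was low in both. On the scaled level the order differed, with both kidney arrays, at -1.69 and -1.16, and heart replicate 1, at -0.40, below skin, at -0.09 and 0.31.

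On all 18 arrays the skin difference of Zfpm2 from the other organs was -1.04 ± 0.48 (log2, SE; limma adjusted p = 0.453) and did not pass. On the 13 arrays it was -1.76 (limma adjusted p = 0.000398). Skin against tail was -1.39 on all arrays (limma adjusted p = 0.342) and -1.58 on the 13 (limma adjusted p = 0.00167). The correlation of Zfpm2 with Gata4 was r = 0.443 over 18 arrays and 0.601 over 13. The 2 probes of Zfpm2 followed each other with r = 0.998. The genes most alike to Zfpm2 were Cpt1a (r = 0.968), Pear1 (0.963), Cers4 (0.961), Armcx1 (0.96) and Tarsl2 (0.96), and on the 13 arrays these values were between 0.849 and 0.909.

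Counted by organ, 2 of 8 members were higher (2.13% of all genes) and 0 lower (0.811%) in gonad, 1 was higher (1.37%) and 1 lower (2.39%) in heart, and 2 were higher (1.21%) and 0 lower (0.609%) in liver. In lung 0 members were called higher (0.411%) and 0 lower (0.122%). In skin 0 were higher (0.73%) and 1 lower (0.659%), and in tail 0 were higher (4.08%) and 2 lower (2.19%). At an unadjusted limma p under 0.05 with no minimum size, 5 members were higher and 2 lower in lung, 0 were lower in gonad, 1 was lower in liver, 1 was higher in skin and 0 were higher in tail. The median difference of the 8 members was 0.69 in gonad, 0.09 in heart, 1.15 in liver, 1.21 in lung, 0.24 in skin and -0.43 in tail. The median over all genes tested was -0.06, -0.11, 0.12, 0.08, 0.38 and 0.34 in the same order. In kidney 1 member was called higher (Gata1) and 5 lower (Gata2, Gata4, Gata6, Zfpm1 and Zfpm2). Since 35.5% of all genes were called higher and 42.4% lower there, nothing is read from those counts. In scanner units, without scaling, Gata2, Gata6 and Zfpm1 in kidney were not low, and each of these differences turned positive.

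The 18 arrays lay on 3 slides that each held several organs, so the called differences were also taken within each slide, with 1 array per organ and no test. Gata4 in gonad exceeded the mean of the other organs on the slide by 5.80, 5.10 and 3.54 (log2), in heart by 5.07, 2.08 and 4.51 and in liver by 3.98, 4.72 and 2.64. The sizes for Gata4 are not exact, since the other organs include skin and tail readings that were not well above background, and skin and tail themselves are given only by sign, which was negative on every slide. Gata6 was at 2.54, 2.42 and 1.92 in liver and at -3.88, -3.33 and -2.95 in tail, Gata2 at -1.66, -3.35 and -1.54 in heart, and Gata3 at 1.36, 1.54 and 0.66 in gonad. Each of these differences had the same sign on every slide that held the organ.

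**Figure D4:**
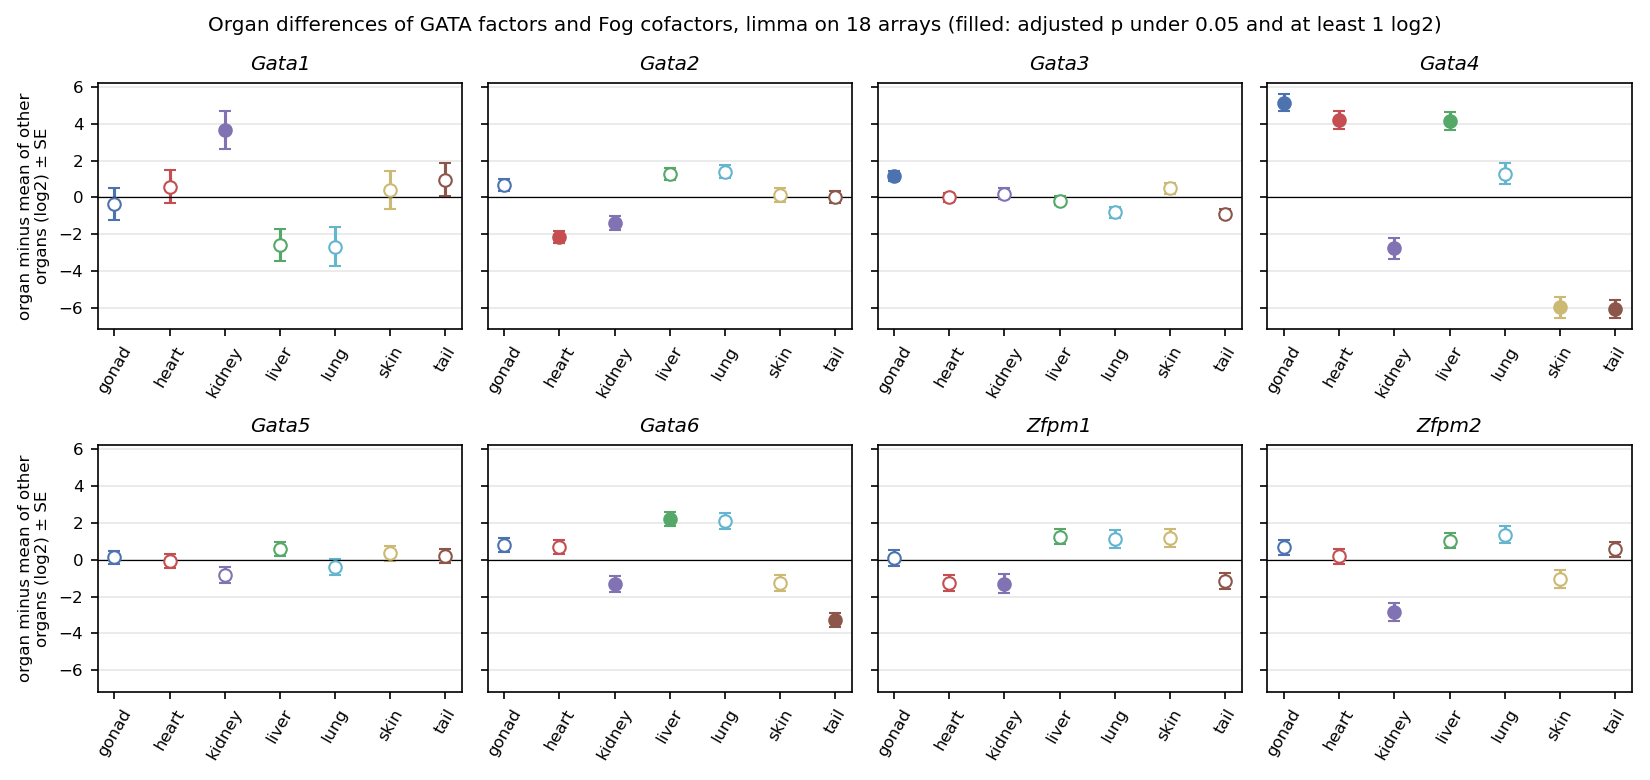
Difference of each organ from the mean of the other 6 organs (log2, ± SE) for the 8 members, from the limma fit on 18 arrays; filled points are called. Gata6 ranges from 2.23 in liver to -3.29 in tail and Gata5 has no filled point. The Gata4 points are drawn as fitted, and their sizes are not exact because skin and tail readings were not well above background.

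Of 9 measured GATA-type zinc finger proteins outside the family of 6, namely Gatad1, Gatad2a, Gatad2b, Mta1, Mta2, Mta3, Rere, Trps1 and Zglp1, 1 passed the F test, where 34% of all genes did. This was Trps1, a transcriptional repressor that acts in hair follicle and growth plate development, at an adjusted p of 0.0181. Trps1 was higher in tail by 1.66 ± 0.29 (log2, SE; limma adjusted p = 0.00289). The other 8 had organ differences between -0.61 and 0.84 outside kidney, none of them called, and at an unadjusted limma p under 0.05 Trps1 in tail was again the single one of the 9 in any organ outside kidney. In kidney 5 of the 9 were called lower, where 42.4% of all genes were.

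Among partners that form complexes with GATA or Fog proteins, 23 were measured. Of these, 1 was higher in gonad (2.13% of all genes), 1 in liver (1.21%) and 1 in skin (0.73%), and 1 was lower in tail (2.19%). Lmo2 made up 3 of these 4 calls. Lmo2, the bridging protein of GATA complexes in blood and endothelium, was higher in liver by 3.78 (limma adjusted p = 0.00268) and in gonad by 2.63 (limma adjusted p = 0.0161), and lower in tail at -2.49 (limma adjusted p = 0.0124). Runx1, a partner in blood and skin, was higher in skin by 2.18 (limma adjusted p = 0.0101). The median difference of the list was 0.59 in liver and 0.27 in gonad.

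Gonadal partners and targets of GATA factors were higher in gonad in 6 of 19 measured genes and lower in 0 (9 and 0 at an unadjusted limma p under 0.05). Of all genes, 2.13% were called higher in gonad and 0.811% lower. The list was chosen with results of these samples known, so it is not independent evidence of its direction. Nr5a1, the steroidogenic factor, was higher by 5.53, Amhr2, the receptor for anti-Müllerian hormone, by 4.83, Wt1 by 4.45 and Cyp11a1, the enzyme that starts steroid synthesis, by 4.15 on the log2 scale (limma adjusted p between 1.66e-05 and 0.000633). The median of the list was 0.64 in gonad. In heart, where Gata4 was also high, the list held 1 gene higher (1.37% of all genes) and 4 lower (2.39%). In liver, where Gata4 was high too, 1 was higher (1.21%) and 1 lower (0.609%). The gene higher in liver was Wt1, by 4.47 (limma adjusted p = 0.00115). In lung 2 were higher (0.411% of all genes) and 0 lower (0.122%), and Wt1 was 1 of the 2, by 4.34 (limma adjusted p = 0.0108). The rise of Wt1 was therefore not particular to gonad.

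Cardiac partners and targets were higher in heart in 3 of 17 genes (1.37% of all genes) and lower in 2 (2.39%). Tcf21, an epicardial and fibroblast factor, was higher by 4.60 (limma adjusted p = 0.000129), Tbx20 by 4.38 (limma adjusted p = 0.00531) and Nkx2-5 by 2.16 (limma adjusted p = 0.0061). Actc1, cardiac actin, was lower, at -4.17 (limma adjusted p = 0.000108), and so was Nfatc4. The median of the list in heart was -0.17. Of 12 cardiomyocyte markers 1 was called higher in heart, Nkx2-5, and 0 lower (1 and 1 at an unadjusted limma p under 0.05). The list of endoderm and epithelial genes downstream of GATA factors gave 1 of 16 higher in liver (1.21% of all genes) and 0 lower. The higher gene was the forkhead factor Foxa2, by 3.89 (limma adjusted p = 0.000905). The median of this list in liver was -1.75, against 0.12 over all genes, with 2 higher and 5 lower at an unadjusted limma p under 0.05. Of the 16, 7 were well above background on every liver array. Of 13 measured lymphocyte targets and partners of Gata3, 0 were called in gonad, where Gata3 was high (0 higher and 2 lower at an unadjusted limma p under 0.05). Of all genes, 2.13% were called higher and 0.811% lower in gonad.

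The cultures are mixed populations, in which fewer cells of a type and less RNA per cell cannot be told apart. Mesothelial and epicardial markers, which include Wt1, had most calls in the direction of Gata4 in liver, gonad, skin and tail, but not in heart. For Gata6 this held in liver and tail. In lung the median difference of the markers, 3.66, was the largest of all organs, while Gata4 was not called there (1.29, limma adjusted p = 0.495). Of 12 such markers, 6 were higher in liver (1.21% of all genes), 4 in lung (0.411%) and 2 in gonad (2.13%), and 5 were lower in skin (0.659%) and 10 in tail (2.19%). Their summed processed signal was 20876 to 107133 units in liver, 56029 to 119396 in lung, 19817 to 32396 in gonad, 6048 to 6955 in skin and 4475 to 6421 in tail. Upk3b was not well above background on either skin array, and Wt1 was well above background on 1 of 2 skin and 1 of 3 tail arrays. In heart, where Gata4 was as high as in liver, 6 of the 12 were lower (2.39% of all genes) and 1 was higher (1.37%). Wt1 was at -2.55 and Aldh1a2 at 2.57 in heart, and the summed signal was 33335 to 42924 units. The part of mesothelial cells in the Gata4 and Gata6 values was not tested.

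Endothelial markers were higher in liver in 8 of 16 genes (1.21% of all genes) and in gonad in 6 of 16 (2.13%). They were lower in heart in 4 (2.39%) and higher in 2 (1.37%), and lower in tail in 6 (2.19%) and higher in 1 (4.08%). Their summed signal was 71116 to 216443 units in liver, 34358 to 108525 in gonad, 29909 to 49479 in heart and 10222 to 11475 in tail. Cdh5, the endothelial cadherin, was higher by 4.06 in liver and 4.14 in gonad, and was at -2.54 in heart and -3.31 in tail, all called. Smooth muscle and pericyte markers were lower in heart in 5 of 12 genes, beside the low Gata2 there, and higher in gonad in 5 and in liver in 3. Actg2 was at -5.30 and Cnn1 at -4.78 in heart (limma adjusted p = 1.1e-05 and 1.72e-05), and the summed signal of the list was 434448 to 486234 units in heart and 599251 to 1203990 units in the other organs outside kidney. Macrophage and leukocyte markers were higher in liver in 4 of 11. Of 11 hepatic stellate cell markers 1 was higher in liver, Colec11 by 3.20, and 4 were lower in tail. Keratinocyte markers gave 1 of 12 higher in skin (0.73% of all genes), Krt14 by 5.65. Nephron tubule markers were called in at most 1 of 12 genes per organ outside kidney. The part of these cell types in the values of Gata2, Gata3, Gata4 and Gata6 was not tested.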

How the data were processed

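Total RNA was labelled with Cy3 and hybridised to 1-colour Agilent arrays with 62976 spots, read with Feature Extraction 11.0.1.1 per the submitters' processing notes. The deposited per-array files hold the authors' scanner intensity values: a processed signal, already background-corrected per the file headers, and raw medians. The deposited value table equals the raw median intensity on all 18 arrays that have a scanner file. Outlier spots and control spots were left out, spots of a probe averaged, and log2 of the processed signal taken minus each array's 75th percentile. Probes were named through RefSeq accessions (GRCm38.p6 table, 27235 of 55681 probes). A gene was represented by the complete probe with the highest mean, and tested if well above background on 2 or more arrays, which removed 463 of 20180 genes. limma 3.58.1 (R 4.3.3) fitted organ means and tested, by lmFit and eBayes, the 7 organs jointly, each organ against the unweighted mean of the other 6, and all 21 pairs, with Benjamini-Hochberg adjustment over all genes. The script was tested on simulated data, with 50 genes raised in gonad at each of several log2 sizes. It recovered 15 of 50 at a shift of 1.5, 15 at 2, 28 at 3 and 39 at 4, with 3 false calls. A difference that was not called may therefore have been missed. Python 3.11.15, pandas 2.3.3 and matplotlib 3.10.9 were used for summaries.

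The members, lists and tests were chosen with earlier results of these data known. Named genes were the 8 members, all other GATA-type zinc finger proteins, up to 4 called genes per list with the largest difference, and the 5 genes most correlated with each member that passed the F test, and 1 further gene is not reported here. The labels do not say whether replicate numbers pair samples, and no pairing was used in the main fit. Deviations from organ means correlated at a mean r of -0.0318 over 46 pairs with the same number and 0.0253 over 92 others. With so few arrays per organ these values cannot decide whether samples were paired. The 3 slides, each also 1 scan, hold several organs each. Kidney pairs of members are not reported, since both kidney arrays have raised background. The number of arrays limits the precision.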

Additional observations from a re-analysis of the deposited data

How the results depend on the processing

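In 34 fits, of which 18 left out 1 array and 2 were added after the data were seen (no scaling, and membership of the 5 arrays with raised background as a term), none of the 48 differences of a member in an organ other than kidney reversed after a call. Of the 9 called, 7 kept their call wherever they were fitted (Gata1 and Gata4 did not pass the filter to probes well above background on every array), the exceptions being Gata3 in gonad and Gata6 in liver; 14 others gained a call in at least 1 setting. Of 24 called pairs without kidney, 15 kept their call wherever fitted. In kidney, differences called under 1 or both settings reversed: Zfpm1 to 0.85 with quantile scaling, 1.07 with normexp and quantile scaling and 1.21 without scaling, and without scaling Gata2 to 1.12, Gata5 to 1.68 and Gata6 to 1.20. With normexp and quantile scaling together, the fitted Gata4 differences were smaller, at 3.65 in gonad, 2.98 in heart, 2.47 in liver, -3.29 in skin and -3.15 in tail, all still called. The cause was not tested.

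Called genes numbered 6698 among the 7 organs, 579 in gonad, 742 in heart, 15342 in kidney, 358 in liver, 105 in lung, 274 in skin, 1237 in tail and 72886 over the organ pairs. With quantile scaling they numbered 9631 in kidney, 185 in lung and 429 in skin. With normexp and quantile scaling they numbered 7791 in kidney, 254 in lung and 481 in skin. With the median of detected probes as scale they numbered 185 in lung and 634 in skin. With probes well above background on every array they numbered 9193 in kidney. With a variance trend and robust moderation they numbered 171 in lung. With the slide as a block they numbered 4403 among the 7 organs and 57 in lung. With the replicate number as a block (replicate block) they numbered 3264 among the 7 organs, 46 in lung and 166 in skin. From the deposited value table of 19 samples they numbered 11736 among the 7 organs and 495 in lung. On the 13 arrays without raised background they numbered 4086 in gonad, 1643 in heart, 1086 in liver, 401 in lung, 4609 in skin and 4107 in tail. On these 13 arrays with normexp and quantile scaling they numbered 1071 in gonad, 573 in liver, 396 in lung and 1325 in skin. With the array floor as a covariate they numbered 224 in liver. Without scaling they numbered 190 in liver and 666 in skin. With raised background as a term they numbered 2449 in gonad, 1116 in heart, 3006 in kidney, 214 in lung, 1779 in skin, 2251 in tail and 34358 over the organ pairs. Leaving out 1 array gave 1798 to 16084 among the 7 organs, 212 to 2516 in gonad, 448 to 2068 in heart, 411 to 16146 in kidney, 150 to 1017 in liver, 3 to 622 in lung, 12 to 1243 in skin, 544 to 1985 in tail and 10164 to 105397 over the organ pairs. The replicate block changed no call of a member against the other organs and ended that of Gata1 over the 7 organs; among pairs it ended those of Gata3 and Gata4 in gonad against lung, Gata6 in lung against skin and Zfpm1 in heart and in tail against liver. The share of calls that were higher moved by over 10 points without scaling, from 72.4% to 32.3% in gonad, 36.4% to 49.8% in heart, 66.5% to 52.6% in liver, 77.1% to 64.8% in lung, 52.6% to 15% in skin, 65.1% to 42.2% in tail and 45.6% to 98.8% in kidney. Quantile scaling gave 83.4% in liver, and the median of detected probes 65.4% in lung and 62.6% in kidney. The signal over background limits Gata1 and, in skin and tail, Gata4.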

Other observations

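Lung replicate 2 was available only as raw median intensity in the deposited value table, without background correction, and entered only the fits on that table. Its raw median over all probes was 80.5 units, between 77 and 87 units for the other lung samples. Gata4 gave 499 raw units in it, against 545 and 328 in lung replicates 1 and 3. Gata6 gave 4518 raw units, against 4666 and 3433. Zfpm2 gave 2140, against 2007 and 2274, and Gata2 gave 1644, against 2162 and 1594. Gata1 gave 55.5 raw units, against 54 in both of the others. For these 5 members the added sample therefore lay within, or for Gata1 within 1.5 units of, the range of its replicates. Gata5 gave 288.5 raw units, above 203 and 162, and Gata3 gave 445, against 431 and 372. In the fit on the value table, which includes this sample, Gata6 was higher in lung than in the other organs by 2.04 (limma adjusted p = 0.000872).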
